A study of Mus musculus with 5 samples.

Results

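The scaffold of the cardiac sarcomere was followed through 9 genes in 5 spatial transcriptome sections of neonatal mouse hearts, namely Ttn, Rbm20, Ldb3, Tcap, Actn2, Myom1, Myom2, Mybpc3 and Nebl. They were chosen by symbol, all 9 were present in every expression table, and they are 9 of the 13711 genes that the 5 tables share. The hearts came from wildtype C57BL/6 mice that had myocardial infarction (MI), made by ligating the left anterior descending artery, or a sham operation at postnatal day 1. The hearts were taken 3 or 7 days later, and a transverse 10 um section was cut 200 um below the suture, with sham hearts cut at an equivalent height. There was 1 section each of sham day 3, MI day 3 and sham day 7, and there were 2 sections of MI day 7. The study calls MI day 7 replicate 2 an independent repeat, and each other group is a single section, so p-values measure only the spread between these sections. Each section was laid on a Visium slide, whose spots capture RNA from several cells at once, and the 5 sections held 3364 spots. Levels are given as CPM, a gene's share of the values of a spot per 1000000, averaged over the spots of a section.

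The sarcomere is the contractile unit of the cardiomyocyte, bounded by Z-discs and held together in its middle by the M-band. Actn2 encodes alpha-actinin, which crosslinks the actin filaments at the Z-disc, where Ldb3 encodes the PDZ and LIM domain protein cypher, Tcap encodes telethonin, which caps the end of titin, and Nebl encodes nebulette. Ttn encodes titin, the giant spring that runs from the Z-disc to the M-band. Mybpc3 encodes cardiac myosin-binding protein C on the thick filament, and Myom1 and Myom2 encode myomesin and M-protein, which link thick filaments at the M-band. Rbm20 encodes an RNA-binding protein that sets the splicing of titin and of several calcium-handling genes in the heart. The values here are totals per gene, so they hold no information on the splice forms of titin.

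In the GRCm38 annotation all 9 are protein coding. Ttn (chr2:76703980-76982547), Actn2 (chr13:12269426-12340760), Ldb3 (chr14:34526603-34588682) and Nebl (chr2:17343909-17731464) lie on the minus strand. Rbm20 (chr19:53677306-53867080), Tcap (chr11:98383811-98384953), Myom1 (chr17:71002633-71126856), Myom2 (chr8:15057653-15133541) and Mybpc3 (chr2:91118144-91136516) lie on the plus strand. The span of Myom1 overlaps Myl12a, a gene on the other strand that is also in the shared set.

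The 250 bases before the RefSeq start (build GRCm38.p6) are shown for the 4 members whose levels varied most with those of the other members from spot to spot, as described further on. RefSeq windows were at hand for 6 of the 9 members, and none for Rbm20, Tcap and Myom2. Capitals mark every match on either strand. The motifs searched were the MEF2 site and the CArG box, then GATAA (the GATA core), the letters CATTCC (the TEAD core), the box TATAAA, and the E-box, spelled CANNTG.
Ttn (chr2:76982548-76982797, minus strand): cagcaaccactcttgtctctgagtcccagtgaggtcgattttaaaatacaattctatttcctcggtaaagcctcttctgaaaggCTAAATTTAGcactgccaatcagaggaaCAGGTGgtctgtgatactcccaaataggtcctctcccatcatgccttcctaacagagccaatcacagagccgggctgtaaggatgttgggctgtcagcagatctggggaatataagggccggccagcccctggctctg
Mybpc3 (chr2:91117894-91118143, plus strand): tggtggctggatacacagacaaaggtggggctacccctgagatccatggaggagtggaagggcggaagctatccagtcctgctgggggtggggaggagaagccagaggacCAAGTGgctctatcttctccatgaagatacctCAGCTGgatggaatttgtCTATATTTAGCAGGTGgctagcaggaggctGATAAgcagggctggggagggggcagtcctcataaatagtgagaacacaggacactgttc
Ldb3 (chr14:34588682-34588931, minus strand): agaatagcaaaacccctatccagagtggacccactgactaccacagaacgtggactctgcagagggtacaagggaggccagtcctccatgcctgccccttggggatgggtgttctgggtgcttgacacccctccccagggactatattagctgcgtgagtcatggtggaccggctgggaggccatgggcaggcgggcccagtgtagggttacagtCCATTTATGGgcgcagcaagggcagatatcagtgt
Actn2 (chr13:12340733-12340982, minus strand): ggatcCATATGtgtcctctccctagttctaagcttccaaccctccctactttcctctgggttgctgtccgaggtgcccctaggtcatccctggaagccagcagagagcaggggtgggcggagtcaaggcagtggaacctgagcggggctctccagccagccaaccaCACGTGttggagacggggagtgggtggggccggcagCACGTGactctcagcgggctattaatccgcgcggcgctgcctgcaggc
The windows of Ttn and Mybpc3 each held 1 match to the MEF2 site, which 0.508% of all 32851 windows of this length held. In Mybpc3 the match runs straight into a CANNTG match, and the window also held 1 GATAA (22.6% of all windows). The window of Ldb3 held 1 CArG box (1.47% of all windows), and the window of Actn2 held 3 CANNTG matches (66.2% of all windows) and none of the other motifs. A match to CATTCC was held by 12.6% and one to TATAAA by 12.4% of all windows, and none of the 4 held either. A match describes letters only and does not show that a factor binds there.

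The raw UMI total per section ran from 11396022 to 37492530, with a median of 20842.5 to 53940.0 UMIs per spot. The sham day 3 table held raw counts and the other 4 held counts corrected by sctransform, so sham day 3 differs from the rest in processing as well as in animal. The mitochondrial share was 24.7% in MI day 7 replicate 1, against 13.8% to 15.8% elsewhere. All 6 cardiomyocyte markers were detected in every section, with a summed level of 25724 to 31805 CPM. The sum of 3 atrial markers was 8177 CPM in MI day 3 against 175 to 1282 CPM elsewhere, of which Nppa alone was 8064 CPM while Myl7 was at 42.3 CPM. The 6 macrophage markers summed to 934 CPM in MI day 3 and to 99.6 to 260 CPM elsewhere. In sections as in spots, fewer cardiomyocytes and less of an RNA per cardiomyocyte cannot be told apart.

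Over the sections, Rbm20 was above 0 in 85.7% to 100% of spots, Nebl in 90.1% to 100% and each of the other 7 in at least 98.4%. In the raw table of sham day 3, Mybpc3 had 22303 UMIs (exact 95% Poisson interval 22011 to 22598, counting error only), found in 543 of 544 spots. Rbm20 had 1769 UMIs (1688 to 1853) in 511 spots and Nebl 1433 (1360 to 1509) in 490. These were the members read least, with a coefficient of variation over spots of 42.7% to 74.8% for Rbm20 and 43.1% to 67.5% for Nebl. Levels of different genes are not compared here, since the capture of each gene's RNA may differ.

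Among the Z-disc genes, Actn2 was at 1344 CPM in sham day 3 and 1515 CPM in sham day 7, and at 1073, 1176 and 1326 CPM in MI day 3 and MI day 7 replicates 1 and 2. All 3 MI sections therefore lay below both sham sections. Ldb3 was at 701, 546, 736, 716 and 687 CPM in sham day 3, MI day 3, sham day 7 and MI day 7 replicates 1 and 2, and MI day 3 stood apart as the lowest. Tcap was at 283 CPM in sham day 3 and 218 CPM in MI day 3, and at 401, 375 and 406 CPM in sham day 7 and MI day 7 replicates 1 and 2. The day 7 sections lay above both day 3 sections, and Tcap varied most over the sections, 1.86-fold from lowest to highest. Nebl varied least, between 121 and 127 CPM, a ratio of 1.05.

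Titin and its splicing regulator varied over the sections by 1.13-fold (Ttn) and 1.35-fold (Rbm20) from lowest to highest. Ttn was at 1189 CPM in sham day 3, 1101 CPM in MI day 3, 1214 CPM in sham day 7 and 1070.5 and 1178 CPM in MI day 7 replicates 1 and 2. By CPM all MI sections were below both sham sections, by a small margin. MI day 7 replicate 1, the lowest, also had the highest mitochondrial share, 24.7%. Whether this order holds with mitochondrial genes left out was not tested. Rbm20 was at 152, 136, 131.5, 117 and 112 CPM in the same order, and the day 7 sections lay below the day 3 sections. On the thick filament, Mybpc3 was at 1941 and 1858 CPM at day 3 and at 2328, 2247 and 2524 CPM at day 7, higher in every day 7 section.

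The M-band genes went apart. Myom1 was at 291 CPM in sham day 3, 275 CPM in MI day 3, 321 CPM in sham day 7 and 246 and 301 CPM in MI day 7 replicates 1 and 2, so that the operations overlapped. Myom2 was at 341 CPM in sham day 3 and 408 CPM in sham day 7, and at 484, 432 and 478 CPM in MI day 3 and MI day 7 replicates 1 and 2. Every MI section was above both sham sections for Myom2.

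**Figure D1:**
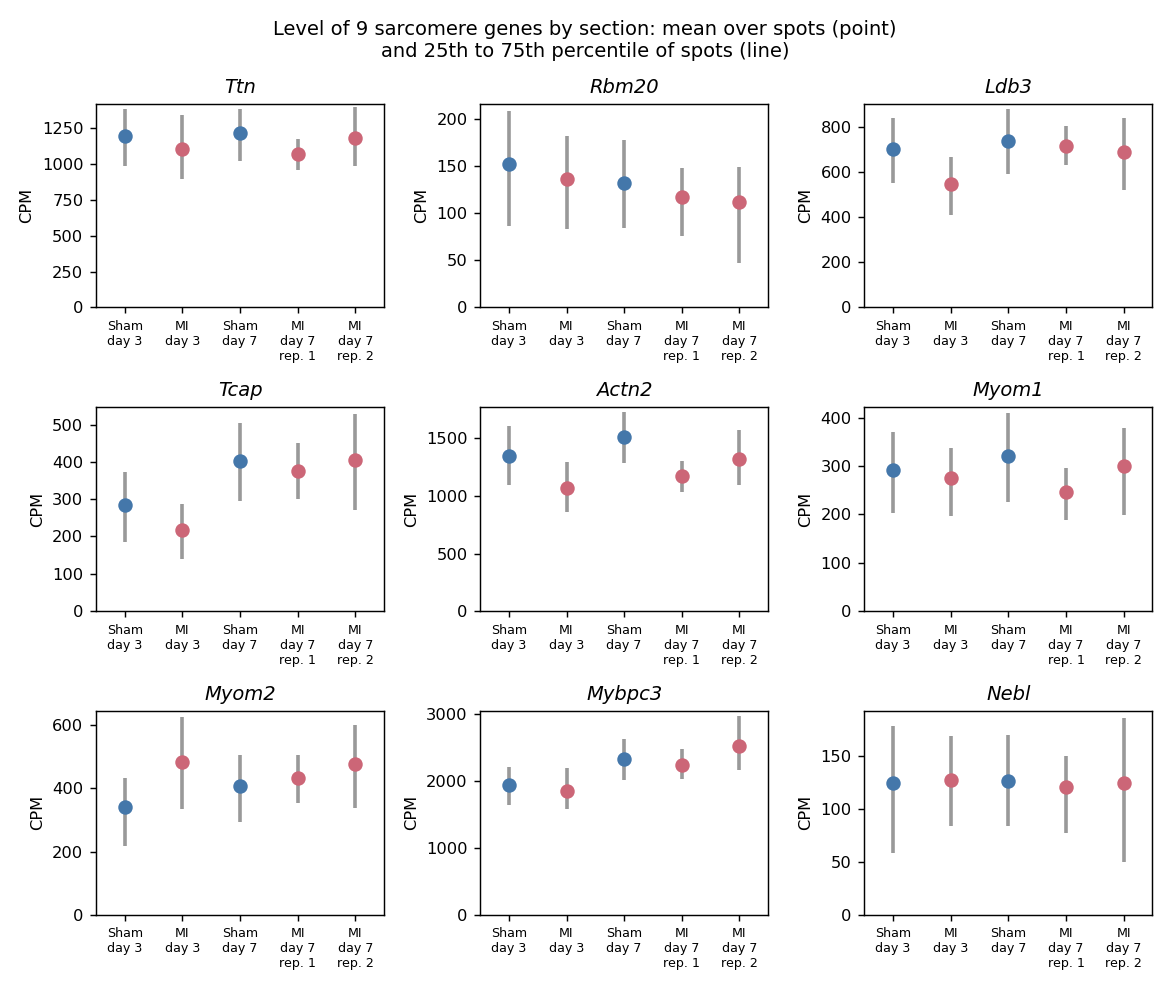
Level of each gene in the 5 sections, in CPM; points are the mean over the spots of a section (blue sham, red MI) and grey lines run from the 25th to the 75th percentile of spots. Tcap is higher in the 3 day 7 sections and Myom2 is higher in the 3 MI sections.

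The first comparison asked whether infarcted and sham hearts differed in these genes over both days. None of the 9 passed in either direction (limma, Benjamini-Hochberg over 12933 genes), where MI was called higher for 0.00773% of all genes and lower for 0%. Before adjustment (p under 0.05) limma again gave 0 of the 9, against 5.35% of all genes higher and 2.75% lower. Only Myom2 had a positive estimate, 0.31 on the log2 scale (SE 0.14, 95% interval -0.02 to 0.63, limma adjusted p 0.645). The most negative was Actn2 at -0.30 (SE 0.14, -0.62 to 0.03, limma adjusted p 0.659). The median over the 9 was -0.17, beside -0.01 over all genes tested. Of the 9, 1 (Myom2) was above both sham sections in every MI section under CPM scaling, where 6.84% of all genes were. Under the same scaling 2 (Ttn and Actn2) were below in every MI section, where 9.6% were. Without the sham day 7 section the Myom2 estimate was 0.50, and without either day 3 section it was 0.16, so its size rested on which day was kept, and over all settings its limma adjusted p ran from 0.203 to 1.00. All 7 fibroblast, 6 macrophage, 5 blood, 3 endocardial and 2 epicardial markers also had positive estimates, none of them called. Of 5 skeletal muscle markers 1 had a positive estimate, with 0 called. They summed to 90.2 and 198 CPM in sham day 3 and sham day 7. In MI day 3 and MI day 7 replicates 1 and 2 they summed to 73.4, 32.5 and 74.1 CPM. The part of all these markers in the values was not tested.

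By day, the difference in Myom2 was larger at day 3. At day 3 the log2 ratio of MI to sham was 0.50 for Myom2, -0.37 for Tcap, -0.36 for Ldb3 and -0.32 for Actn2, and between -0.16 and 0.03 for the others. With 1 section each at day 3, its test in limma, chosen after the values were seen, assumes that they vary as the sections of MI day 7 do. It called 0 of the 9 (Myom2 SE 0.30, limma adjusted p 0.721), where 2.45% of all genes were called higher and 0.379% lower. Before adjustment (p under 0.05) it gave 0 of the 9, against 7.76% higher and 2.34% lower. At day 7, limma with 1 residual degree of freedom called 0 of the 9 (0.186% of all genes were called higher and 0.0464% lower). Before adjustment (p under 0.05) it gave 0 of the 9, against 2.43% higher and 1.69% lower. The day 7 estimate was 0.16 for Myom2 (SE 0.26, limma adjusted p 1.00; 0.083 without MI day 7 replicate 2 and 0.23 without replicate 1) and -0.28 for Actn2 (SE 0.29, limma adjusted p 1.00). A test of whether the day difference itself differed with operation, chosen after the values were seen, called none of the 9 in limma, where 0.0619% of all genes were higher and 0.363% lower. Before adjustment (p under 0.05) it gave 0 of the 9, against 1.31% higher and 4.12% lower. Myom2 went down by 0.09 from day 3 to day 7 in MI and up by 0.26 in sham (SE of the difference 0.40, limma adjusted p 1.00).

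Setting one M-band gene against the other within a section removes anything that scales both. The ratio of Myom1 to Myom2 was 0.853 in sham day 3 and 0.787 in sham day 7, and 0.567, 0.570 and 0.629 in MI day 3 and MI day 7 replicates 1 and 2. The sham and MI ranges did not overlap. The difference was -0.48 on the log2 scale (exact permutation test, two-sided, p = 0.2), and 0.2 is the smallest p that 3 sections against 2 allow. Of the 36 ratios between the 9 genes, 11 did not overlap between the operations, where 22.5% of the ratios between all gene pairs did not, and 7 of these 11 were among the 8 that involve Myom2, which all share its value. The exception among the 8 was the ratio of Tcap to Myom2, which ranged from 0.831 to 0.983 over sham sections and from 0.451 to 0.868 over MI sections. With 36 ratios computed and none able to pass, these are descriptions.

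The same split held within spot classes. The metadata of each section gave 11 scores per spot, made by the study by integrating the spots with single nuclei, and a spot was assigned to the class with its highest score. CM1 and CM4 are cardiomyocyte states (CM4 is the state that the study describes as entering the cell cycle after injury) and FB is fibroblast. Over all spots the FB score averaged 19.1% and 24.6% in the day 3 and day 7 sham sections. In MI day 3 and MI day 7 replicates 1 and 2 it was 7.12%, 11.7% and 11.3%. The CM scores together averaged 58.2% and 51.8% in sham and 69.4%, 63.5% and 71.7% in MI. Fibroblast markers ran the other way to the FB score, with 4215 and 4483 CPM in sham and 5733, 5162 and 7072 CPM in MI. Their part in the levels was not tested. In CM1 spots the ratio of Myom2 to Myom1 was 1.20 in sham day 3 and 1.31 in sham day 7, and it was 1.85, 1.79 and 1.56 in MI day 3 and MI day 7 replicates 1 and 2. In CM4 spots it was 1.14 and 1.19 in sham and 1.77, 1.74 and 1.67 in MI. In FB spots, whose RNA still held 19178 to 29221 CPM of cardiomyocyte markers, it was 1.08 and 1.17 in sham and 1.77, 1.74 and 1.71 in MI. In all 3 classes every MI section was above both sham sections. The classes of one section share its library, so they are not separate replicates of this pattern.

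**Figure D2:**
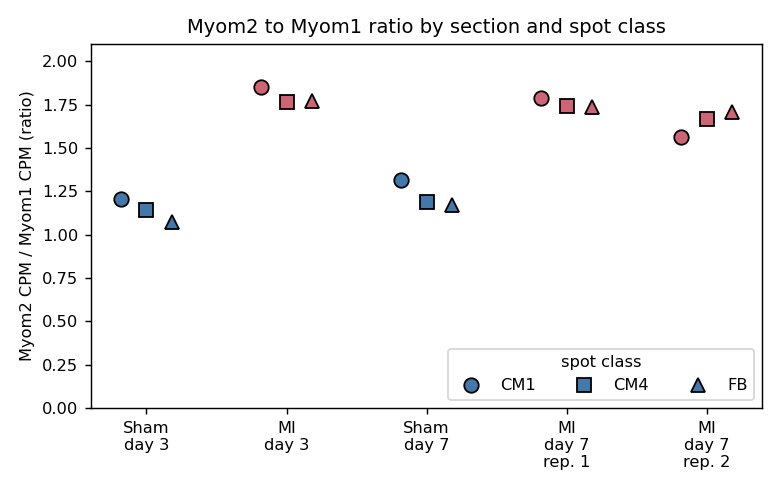
Ratio of Myom2 CPM to Myom1 CPM (linear axis from 0) by section, for spots of the CM1, CM4 and FB classes; blue is sham and red is MI. All 9 MI points lie at 1.56 or above and all 6 sham points at 1.31 or below.

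To compare like spots, MI and sham were also set against each other in CM1 spots alone, 211 to 491 per section. Limma called 0 of the 9 (0.188% of all genes were called higher and 0.0628% lower). Before adjustment (p under 0.05) it gave 0 of the 9, against 3.89% higher and 3.74% lower. Myom2 differed by 0.31 (SE 0.16, limma adjusted p 0.724) and Actn2 by -0.33 (SE 0.17, limma adjusted p 0.703). Without sham day 7 the Myom2 estimate was 0.59, and without either day 3 section it was 0.10. In CM1 spots Actn2 was at 1480 CPM in sham day 3 and 1624 CPM in sham day 7, and at 1183, 1168 and 1414 CPM in MI day 3 and MI day 7 replicates 1 and 2. All 6 macrophage, 7 fibroblast and 5 blood markers had positive estimates in these spots. Of the blood markers 1 was called higher, as was 1 of 2 epicardial markers. Their part in the differences was not tested.

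The second comparison asked which genes changed from day 3 to day 7 after surgery. None of the 9 passed in limma, where 0.247% of all genes were called higher and 0.348% lower at day 7. At an unadjusted p under 0.05 limma gave 1 of the 9 higher (Tcap), against 3.33% of all genes, and 0 lower, against 21.7%. Tcap differed by 0.69 on the log2 scale (SE 0.13, 95% interval 0.38 to 1.00, limma adjusted p 0.0742). With median-of-ratios scaling it passed, at 0.88 (limma adjusted p 0.0292), as it did with mitochondrial and haemoglobin genes left out (0.75, limma adjusted p 0.0397), where 84 genes were called higher and 129 lower over all genes. Without the MI day 3 section the Tcap difference was 0.50 (limma adjusted p 0.732). Over all genes, limma called 125 higher and 622 lower without sham day 3, and 121 and 637 without sham day 7, in place of 32 and 45. Over the settings tried the adjusted p of Tcap in limma ran from 0.0292 to 0.732, and its difference stayed positive.

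Mybpc3 differed by 0.32 (SE 0.15, limma adjusted p 0.229) and Rbm20 by -0.23 (SE 0.11, limma adjusted p 0.232) between the days. Of the 9, Tcap and Mybpc3 were higher in every day 7 section than in both day 3 sections, where 5.79% of all genes were, and Rbm20 was lower in every day 7 section, where 38.9% were. The median of all genes was -0.18 under CPM scaling and -0.01 under median-of-ratios scaling, and Rbm20 differed by -0.034 under the latter, where limma called 127 genes higher (0.981% of all genes) and 58 lower (0.448%) in place of 32 and 45. Against the other members, all 8 ratios with Tcap and 7 of the 8 with Rbm20 did not overlap between the days, of 17 among the 36, where 34.7% of the ratios between all gene pairs did not. Ratios with 1 gene in common are not separate observations. The ratio of Ttn to Tcap was 4.20 in sham day 3, 5.04 in MI day 3, and 3.03, 2.86 and 2.90 in sham day 7 and MI day 7 replicates 1 and 2. The ratio of Rbm20 to Mybpc3 was 0.0782 and 0.0732 at day 3 and 0.0565, 0.0521 and 0.0444 at day 7. Other markers moved with the days. Of the 3 atrial markers 2 were called lower at day 7 (median -2.80). All 6 macrophage markers had negative estimates (median -0.92) and 4 of the 5 mural markers positive ones (median 0.36), none of them called. The macrophage sum was 99.6 CPM in sham day 3 and 109 CPM in sham day 7, and 934 CPM in MI day 3 against 168 and 260 CPM in MI day 7 replicates 1 and 2. Their part in the differences was not tested. Day, animal and, for sham day 3, the kind of table cannot be told apart here.

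**Figure D3:**
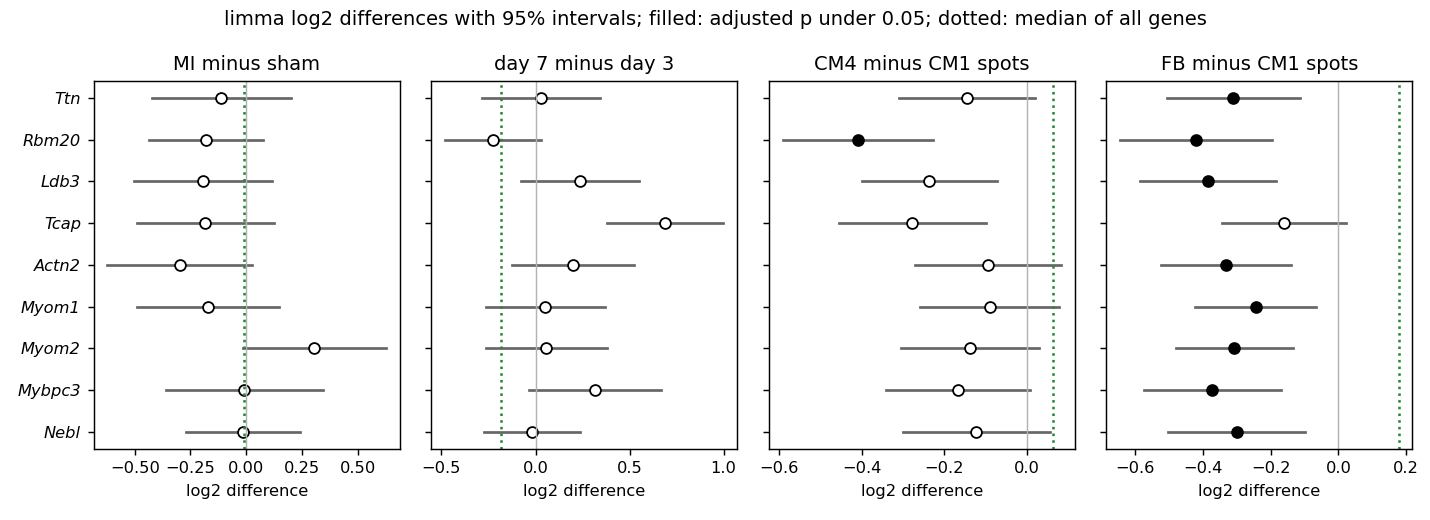
Differences of the 9 genes on the log2 scale from limma with 95% intervals, for MI minus sham, day 7 minus day 3, CM4 minus CM1 spots and FB minus CM1 spots (each panel with its own axis). Filled points have a limma adjusted p under 0.05, which holds for Rbm20 in CM4 spots and for 8 genes in FB spots; the dotted line is the median of all genes.

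The third comparison asked how the genes differ between spots of the CM4 and CM1 states. There were 40 to 86 CM4 spots and 211 to 491 CM1 spots per section, and the section was kept as a block. The scores were made from the same expression values, so the sizes describe the classes and are no independent evidence. Of the 9, limma called 1 lower (Rbm20) and 0 higher in CM4 spots, where 0.0602% of all genes were called lower and 1.09% higher. At an unadjusted p under 0.05, 3 were lower (Rbm20, Tcap and Ldb3), where 2.4% of all genes were, and 0 were higher, where 9.18% were.

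Rbm20 was at 163, 163, 144, 120 and 122 CPM in the CM1 spots of sham day 3, MI day 3, sham day 7 and MI day 7 replicates 1 and 2. In the CM4 spots of the same sections it was at 124, 105, 107, 103 and 94.1 CPM, lower in each. The difference was -0.41 on the log2 scale (SE 0.09, 95% interval -0.59 to -0.23, limma adjusted p 0.0182). It was -0.35 without MI day 3 (limma adjusted p 0.124), -0.40 without sham day 7 (0.0725) and -0.42 without MI day 7 replicate 2 (0.0974), and passed without either of the remaining sections. With spots kept only at a score of at least 0.5 it was -0.44 (limma adjusted p 0.0542), and without the section as a block its limma adjusted p was 0.942. Over all settings that p ran from 0.00479 to 0.942. Under median-of-ratios scaling limma called 119 genes higher (0.899% of all genes) and 55 lower (0.416%), in place of 145 and 8.

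The other members were also lower in CM4 spots, but none of them passed. Tcap differed by -0.28 (SE 0.09, limma adjusted p 0.142), with 279 against 247 CPM in sham day 3, 250.2 against 179 CPM in MI day 3, 427 against 385 CPM in sham day 7, and 369 against 357 and 438 against 302 CPM in MI day 7 replicates 1 and 2. Ldb3 differed by -0.24 (SE 0.08, limma adjusted p 0.186). Ttn, Rbm20, Ldb3 and Tcap, 4 of the 9, were lower in CM4 spots in all 5 sections, as 2.17% of all genes were, and 0 of the 9 were higher in all 5, as 8.83% were. Actn2 differed by -0.09 (SE 0.09, limma adjusted p 0.732). Its CM4 spots were higher in MI day 3 (1212 against 1183 CPM) and in MI day 7 replicate 1 (1273 against 1168 CPM). The median over the 9 was -0.14, beside 0.06 over all genes.

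Other values moved with the CM4 class. Cardiomyocyte markers summed to 25484 to 29868 CPM in CM4 spots and to 28379 to 33732 CPM in CM1 spots, and the summed CM scores were 75.4% to 86.0% and 84.2% to 91.2%. Fibroblast markers summed to 4202 to 8253 CPM in CM4 and 2664 to 4044 CPM in CM1 spots. Nppa was at 22578 CPM in the CM4 spots of MI day 3 and 4390 CPM in those of MI day 7 replicate 2, and at 327 to 340.2 CPM in those of the other sections. Of the 7 fibroblast markers 6 were called higher in CM4 spots, of the 6 macrophage markers 3, and of the 6 cardiomyocyte markers 0 in either direction. Of the 5 mural markers 2 (Tagln and Myh11) and of the 3 atrial markers 1 (Nppa) were called higher. The mitochondrial share was 22.8% in CM4 and 16.3% in CM1 spots of sham day 3 and 9.70% and 17.0% in MI day 3. It was 20.5% in CM4 and 16.2% in CM1 spots of sham day 7. In MI day 7 it was 20.8% and 28.2% in replicate 1 and 14.1% and 17.3% in replicate 2. The share was thus higher in CM4 spots of the sham sections and lower in those of the MI sections. Their part in the differences was not tested.

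Whether the CM4 to CM1 difference itself differed between MI and sham was tested with limma, and 0 of the 9 and 0% of all genes passed in either direction. At an unadjusted p under 0.05 it gave 0 of the 9, 15.9% of all genes higher and 1.16% lower. The largest value was 0.30 for Actn2 (SE 0.19, 95% interval -0.18 to 0.79, limma adjusted p 0.440), and the interval for Rbm20 was -0.80 to 0.75. At a pseudocount of 10 limma called 119 genes higher and 17 lower, still with 0 of the 9, while it called 0 genes under the other settings tried.

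The fourth comparison set FB spots, 22 to 266 per section, against CM1 spots. Of the 9, limma called 8 lower in FB spots, all but Tcap, and 0 higher, where 3.42% of all genes were called lower and 23.5% higher. At an unadjusted p under 0.05 limma again gave 8 lower, against 6.01% of all genes, and 0 higher, against 33.2%. The same 8 were lower in all 5 sections, as 5.22% of all genes were, and 0 were higher in all 5, as 30.9% were. Rbm20 differed by -0.42 (SE 0.11, limma adjusted p 0.00886), at 163 against 144 CPM in sham day 3, 163 against 81.4 CPM in MI day 3, 144 against 114 CPM in sham day 7, and 120 against 108 and 122 against 89.1 CPM in MI day 7 replicates 1 and 2. For Rbm20 the gap was widest in MI day 3, which had the fewest FB spots, 22, and without that section it differed by -0.28 (limma adjusted p 0.0110).

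Of the other 7 that fell in FB spots, Ldb3 was at -0.38 (SE 0.09, limma adjusted p 0.00755), Mybpc3 at -0.37 (SE 0.09, 0.00989) and Actn2 at -0.33 (SE 0.09, 0.0137). Ttn, Myom2, Nebl and Myom1 fell by 0.31, 0.31, 0.30 and 0.24, with limma adjusted p values of 0.0219, 0.0123, 0.0285 and 0.0419. Mybpc3 went from 2107 to 1791 CPM in sham day 3, from 2072 to 1379 CPM in MI day 3 and from 2527 to 2038 CPM in sham day 7, and from 2273 to 2021 and 2749 to 1869 CPM in MI day 7 replicates 1 and 2. Without MI day 7 replicate 2, limma called 3 of the 9 (Rbm20, Ldb3 and Myom2) and 134 genes lower in all, in place of 458. Without MI day 3 it called 6, and 349 in all, with Myom1 at -0.16 (limma adjusted p 0.114) and Nebl at -0.19 (0.0804) lost. Without sham day 7, and without MI day 7 replicate 1, it called 7, and 376 and 315 in all, with Myom1 lost at 0.0548 and 0.0569. Without the section as a block it called 0, and 18 in all. Of the 6 cardiomyocyte markers 4 were called lower in FB spots, and all 7 fibroblast and 6 macrophage markers were called higher, as were all 3 endocardial, all 3 atrial and 4 of 5 mural markers. The FB spots of MI day 3 also held 16304 CPM of Nppa, against 3390 CPM in its CM1 spots. The mitochondrial share was lower in FB than in CM1 spots of every section. The gap ran from 14.7% against 16.2% in sham day 7 to 6.71% against 17.0% in MI day 3. Their part in the differences was not tested.

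Tcap, the 1 member not called, was at -0.16 (SE 0.09, 95% interval -0.34 to 0.02, limma adjusted p 0.180). It was higher in FB than in CM1 spots in sham day 3 (306 against 279 CPM) and MI day 7 replicate 1 (371 against 369 CPM), and lower in the other 3 sections. The median of all genes was 0.18 in this comparison and -0.02 under median-of-ratios scaling, where Tcap differed by -0.38 (limma adjusted p 0.00692). With mitochondrial and haemoglobin genes left out it differed by -0.27 (limma adjusted p 0.0487), so the call on Tcap rests on the scaling. Under median-of-ratios scaling limma called 1446 genes higher (10.8% of all genes) and 1517 lower (11.3%), in place of 3154 and 458.

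**Figure D4:**
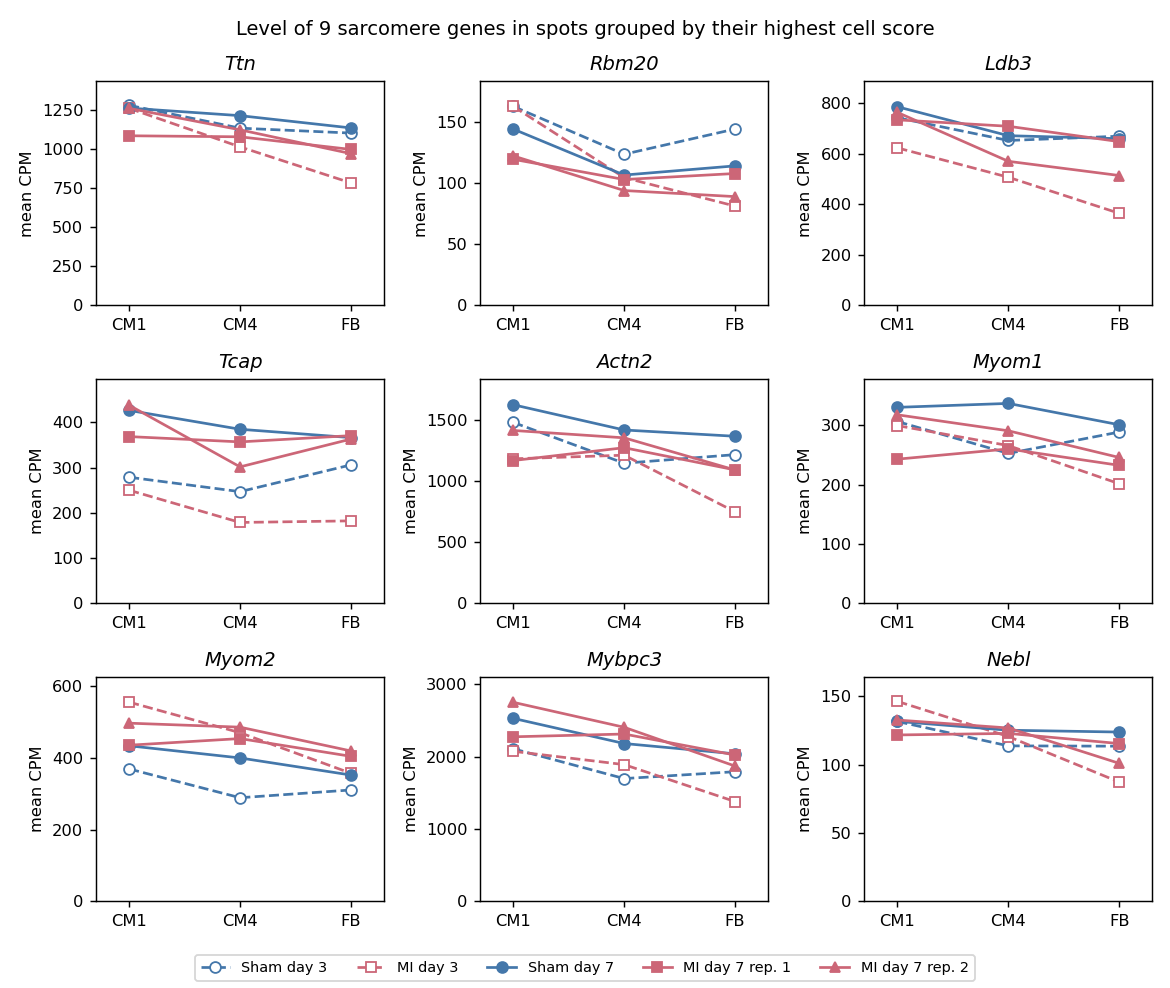
Mean CPM of each gene in spots of the CM1, CM4 and FB classes (linear axes from 0); each line is 1 section, blue for sham and red for MI, dashed for day 3 and solid for day 7. FB points lie below CM1 points for 8 genes in every section, while Tcap is higher in FB spots in sham day 3 and nearly level in MI day 7 replicate 1.

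Spots with the macrophage score highest had at least 20 spots in 4 sections, and those of MI day 3 differed most from CM1 spots. In these 20 spots all 9 genes were lower, by 0.81 (Myom1) to 2.22 (Rbm20) on the log2 scale. Rbm20 was at 34.2 CPM there, against 122, 128 and 125 CPM in the macrophage spots of sham day 3, sham day 7 and MI day 7 replicate 1. Mybpc3 was at 949 CPM, against 1805, 2282 and 2215 CPM. Cardiomyocyte markers summed to 13903 CPM in the MI day 3 spots and to 27650 to 31347 CPM in those of the other 3 sections. Macrophage markers summed to 8900 CPM in the MI day 3 spots and to 324 to 543 CPM in those of the other 3 sections. With 1 section showing this there is no test.

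In EndoEC (endocardial) spots, present in all 5 sections, 7 of the 9 were lower than in CM1 spots in every section, with Tcap and Nebl the exceptions, as 4.69% of all genes were. None of the 9 was higher in all 5, as 16.6% of all genes were. In EC (endothelial) spots Ttn alone was lower in every section, as 1.57% of all genes were, and 0 of the 9 were higher in every section, as 13.6% were. Rbm20 and Myom2 were lower in 1 of the 5. The median log2 ratio to CM1 was 0.15 for Myom2 and 0.07 for Rbm20 in EC spots and -0.10 for Ttn.

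Within sections, the members rose and fell together from spot to spot, to unequal degrees. Over the 5 sections the mean Spearman rho was highest for Actn2 with Mybpc3, 0.47 (0.39 to 0.61), followed by Ldb3, Myom2 and Ttn with Mybpc3, each at 0.32. The lowest was Tcap with Nebl at 0.03 (-0.05 to 0.10). Averaged over the other 8 members, rho was 0.28 for Mybpc3, 0.24 for Actn2, 0.21 for Ldb3 and 0.20 for Ttn, the 4 whose upstream sequence is printed above, and 0.13 for Rbm20 and 0.09 for Nebl. The genes read least had the lowest values, and spots of a section share their library, so these are descriptions. Ttn with Rbm20 had a mean rho of 0.14, from 0.04 to 0.41, highest in MI day 3.

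Of 7571 genes with at least 10 CPM in every section, the 5 most like Ttn were Myh6 (mean rho 0.37), Tnnt2 (0.37), Myl2 (0.35), Pln (0.33) and Myl3 (0.33). Myh6 encodes the main adult myosin heavy chain of the mouse heart, Tnnt2 cardiac troponin T, Myl2 and Myl3 ventricular myosin light chains, and Pln phospholamban, which inhibits the calcium pump. The 5 most like Rbm20 were Atp2a2 (0.26), which encodes that pump, Tnni1 (0.25), Myl2 (0.25), Pln (0.24) and Tnni3 (0.24).

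Spatial clustering was measured with Moran's I over neighbouring spots, which is near 0 where levels are scattered and rises where neighbours are alike. It was highest in MI day 3 or MI day 7 replicate 2 for all 9, and the median over all genes was also highest in these, at 0.035 and 0.021 against 0.007 to 0.017 elsewhere. Mybpc3 was at 0.069 in sham day 3, 0.52 in MI day 3, 0.38 in sham day 7 and 0.37 and 0.53 in MI day 7 replicates 1 and 2. Ttn was at -0.005, 0.50, 0.16, 0.097 and 0.36 in the same order, and Actn2 at 0.25, 0.45, 0.29, 0.23 and 0.37. As a percentile among all genes of the section, Mybpc3 was at 95.4, 98.8, 99.7, 99.3 and 99.5 in that order. Ttn was at percentile 33.5, 98.6, 98.8, 92.2 and 98.7, and Actn2 at 99.4, 98.1, 99.5, 97.7 and 98.8. Rbm20 stayed between 0.019 and 0.18 and Nebl between -0.009 and 0.13. Sham day 3, whose table alone holds raw counts, had the lowest value for 6 of the 9.

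**Figure D5:**
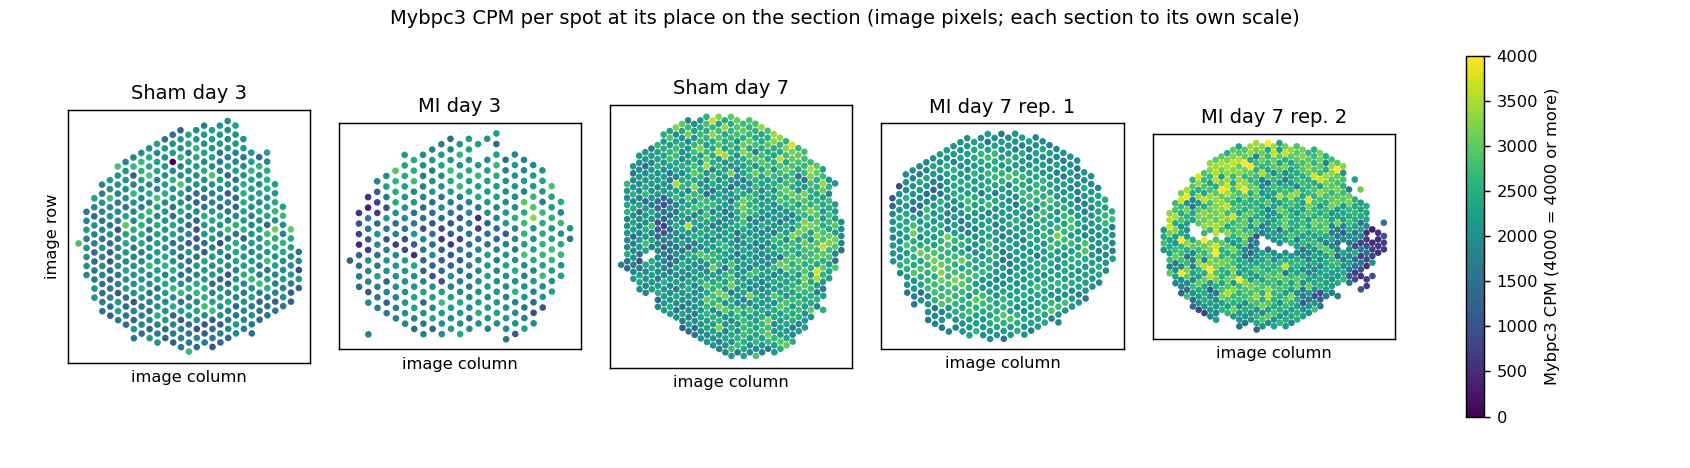
Mybpc3 CPM per spot at the spot's place in the image (axes in pixels, each section to its own scale; values at or above the top of the colour bar share a colour). The 17 spots that stand apart from the tissue are not drawn. Low (dark) spots lie together at the left and centre of MI day 3 and at the right edge of MI day 7 replicate 2, and sham day 3 shows no such group (Moran's I 0.069).

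The rest of the sarcomere was read through lists of Z-disc, M-band, thick filament, thin filament and assembly genes and of known Rbm20 splice targets. Between MI and sham, limma called 0 genes of any of these lists across days or at day 7. Between the days it called 3 of 7 thick filament genes lower at day 7 and 0 genes of the other lists, where 0.348% of all genes were called lower and 0.247% higher. Under median-of-ratios scaling the same 3 were lower, and 2 of 18 Z-disc genes (Bag3 and Fhl2) and 2 of 10 M-band genes (Cmya5 and Trim54) were called higher, where 0.448% of all genes were called lower and 0.981% higher. Of the 3, Myl7, the atrial regulatory light chain, was at -3.70 (SE 0.24, limma adjusted p 0.00822) and Myh7, the slow myosin heavy chain of the fetal heart, at -1.91 (SE 0.18, 0.0193). The third was Myl4, an embryonic and atrial light chain. Myl7 and Myl4 are also 2 of the 3 atrial markers tested, and the remaining one, Nppa, was at -2.80 (SE 0.97, limma adjusted p 0.155).

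In CM4 against CM1 spots, limma called 1 of 18 Z-disc genes (Pdlim3, 0.89), 1 of 10 M-band and titin-associated genes (Fhl1, 0.54) and 1 of 10 thin filament genes (Acta1, skeletal actin, 1.39) higher, each opposite in sign to all 9 members. It called 1 thin filament gene lower, Tnni1, the slow troponin I of the immature heart, at -0.44 (SE 0.08, limma adjusted p 0.00683). Of 9 Rbm20 splice targets, 1 was called, again Pdlim3, which stands on both lists. Over all genes 1.09% were called higher and 0.0602% lower. Under median-of-ratios scaling Fhl1 was not called, while Fhod3 (thin filament) and Ryr2 (splice targets) were called lower, where 0.416% of all genes were called lower and 0.899% higher. The medians were 0.04 for the Z-disc, -0.18 for the M-band and -0.13 for the thin filament list, beside 0.06 over all genes.

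In FB against CM1 spots, 5 of 10 thin filament genes were called lower and 1 higher, 3 of 10 M-band genes lower and 1 higher, and 5 of 9 splice targets lower and 2 higher, where 3.42% of all genes were called lower and 23.5% higher. Ryr2, the calcium release channel, was at -0.50 (SE 0.09, limma adjusted p 0.000671) among the splice targets. On the Z-disc list 1 of 18 was lower and 3 were higher, with Pdlim3 at 2.11 (SE 0.15, limma adjusted p 1.41e-07), a gene that is not restricted to cardiomyocytes. Of the assembly genes, 2 of 5 were lower and 1 higher, with the myosin chaperone Unc45b at -0.32 (SE 0.09, limma adjusted p 0.0198). On the thick filament list 1 of 7 was called lower and 2 higher. These counts rest on the scaling. Under median-of-ratios scaling 12 Z-disc genes were called lower and 1 higher, 8 thin filament genes lower and 0 higher, 5 M-band genes lower and 1 higher, 4 thick filament genes lower and 2 higher, 4 assembly genes lower and 0 higher, and 6 splice targets lower and 1 higher, where 11.3% of all genes were called lower and 10.8% higher.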

How the data were processed

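Spatial RNA was measured on Visium slides in 5 heart sections of 3364 spots, with a median of 20842.5 to 53940.0 raw UMIs per spot. Per the submitters' processing notes, the authors used Space Ranger with mm10/GRCm38, and then sctransform. The deposited sham day 3 table holds raw counts, and the other 4 deposited tables hold corrected counts, treated as a score without a fixed unit. The authors also deposited, per spot, raw UMI counts, 11 cell type scores (each a fraction) and other values, namely image positions in pixels.

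Values of the 13711 shared genes were scaled to CPM per spot and averaged per section, or per section and class of highest score with at least 20 spots. At a score of at least 0.5 this minimum was not applied, and the FB class of MI day 3 held 17 spots. The log2 of mean CPM + 1 was tested with limma 3.58.1 (R 4.3.3, trend, genes with at least 1 CPM in 2 columns, Benjamini-Hochberg, threshold 0.05, two-sided), with day or operation as covariate between sections and the section as a block between classes. A count test was not used, since 4 tables hold no raw counts. The script was tested on simulated data. All 9 genes were named in every comparison, other genes came from fixed lists, and the genes most alike were the 5 with the highest mean Spearman rho over sections. Moran's I used spots within 1.25 times the median nearest distance. The members and lists were chosen with earlier results of these data known. Alternatives were another scaling, pseudocount, filter, summing over spots, score minimum, block and leaving out each section. Section pairs shared 3 to 449 barcodes, none with identical values. Promoters came from RefSeq (GRCm38.p6).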

Additional observations from a re-analysis of the deposited data

How the results depend on the processing

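Between section groups no paired analysis was possible because the sections came from different hearts, and the labels link no MI heart to a sham heart. Only MI day 7 had more than 1 replicate. Between spot classes the section was the block, and with no replicate block limma called 0 members in CM4 against CM1 spots and 0 in FB against CM1 spots. With a score of at least 0.5 it called 0 in CM4 spots. Leaving out 1 section at a time gave 0 to 1 members lower in CM4 spots and 3 to 8 in FB spots. From day 3 to day 7, 1 member (Tcap) was called higher under median-of-ratios scaling and 1 with mitochondrial and haemoglobin genes left out, where 127 and 84 of all genes were called higher in place of 32. Leaving out 17 isolated spots, like the tests of operation by day and of day 3 alone chosen after the data were seen, changed no call of a member. Calls over all genes moved more. MI over sham gave 0 to 319 genes higher and 0 to 47 lower across settings (1 and 0 as reported), at day 7 alone 0 to 62 and 0 to 25 (24 and 6), and in CM1 spots 11 to 185 and 3 to 120 (24 and 8). Day 7 over day 3 gave 10 to 127 and 22 to 637 (32 and 45), CM4 over CM1 0 to 279 and 0 to 55 (145 and 8), and FB over CM1 1091 to 3208 and 18 to 1517 (3154 and 458).

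Some estimates that never passed the threshold changed sign. With mitochondrial and haemoglobin genes left out, MI minus sham was 0.040 for Mybpc3 and 0.033 for Nebl over both days, 0.021 for Ldb3, 0.046 for Tcap and 0.044 for Nebl at day 7, and 0.014 for Ttn and 0.064 for Mybpc3 in CM1 spots, where median-of-ratios scaling gave 0.015 for Mybpc3. Day 7 minus day 3 for Nebl was 0.17 under median-of-ratios scaling and 0.040 without those genes. The difference of the CM4 to CM1 difference between MI and sham was -0.26 for Myom1, -0.16 for Myom2 and -0.13 for Mybpc3 under median-of-ratios scaling, and -0.20, -0.090 and -0.075 without those genes. At a score of at least 0.5 it was 0.026 for Rbm20, 0.024 for Ldb3 and 0.021 for Nebl.

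Leaving out 1 section at a time, MI minus sham ran from -0.063 to 0.033 for Mybpc3 and -0.046 to 0.029 for Nebl, and in CM1 spots from -0.088 to 0.049 and -0.051 to 0.15. At day 7 alone it ran from -0.051 to 0.12 for Mybpc3 and -0.097 to 0.018 for Tcap. Day 7 minus day 3 ran from -0.014 to 0.14 for Myom1, -0.092 to 0.26 for Myom2, -0.050 to 0.025 for Nebl and -0.0054 to 0.064 for Ttn. The difference between MI and sham in the CM4 to CM1 difference ran from -0.24 to 0.14 for Rbm20, -0.15 to 0.033 for Ldb3, -0.043 to 0.11 for Myom1 and -0.068 to 0.046 for Nebl. The cause of these changes was not tested. With 1 to 2 residual degrees of freedom between sections, and with raw values in 1 table only, depth and processing limit what can be told between groups.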
